A study of Mus musculus with 8 samples.

Results

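The 10 genes described here encode parts of the extracellular matrix, the cell surface proteins that bind it and the enzymes that cut it: Vcan, Fn1, Sdc3, Sdc4, Adam8, Adam17, Mmp14, Mmp19, Timp2 and Emp1. They were chosen by name, 10 of the 16486 gene entries with a normalized value, and all 10 were measured. The choice was made with measured values of these libraries in view, so their levels and differences are given as a description. Where the 10 genes were called in fits run on all genes, the calls are listed and no conclusion is drawn from them. RNA-Seq was performed on blood monocytes (MCs) sorted as CD11b+ Ly6G- cells and divided into Ly6Chigh and Ly6Clow MCs. All mice were males on normal chow and gave blood at 20 to 22 weeks of age. The CT group was C57/BL6. For the T1DM group, C57/BL6 mice received daily intraperitoneal streptozotocin (STZ), a toxin of the insulin-producing beta cell, when 8 weeks old (50 mg/kg on each of 5 days). The T2DM group was db/db, homozygous for a mutated leptin receptor, whose strain background is not given in the sources used here. The data used here hold 2 libraries of each subset for CT and 1 library of each subset for T1DM and for T2DM, 8 in all. The paper describes duplicate libraries for the diabetic groups as well. RNA of 5 mice was pooled for each group, so the CT libraries may be technical repeats of a pool, and p-values measure only the spread between these libraries.

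Matrix around a blood cell is made of glycoproteins such as fibronectin and of proteoglycans, proteins that carry long sugar chains. A monocyte that leaves the blood grips this matrix through integrins and syndecans, lays down matrix of its own, and cuts it with membrane-bound and secreted metalloproteinases. The ADAM and MMP enzymes also release receptors and cytokines from the cell surface, and the TIMP proteins inhibit them. Ly6Chigh MCs are the classical monocytes that enter inflamed tissue, and Ly6Clow MCs are the nonclassical monocytes that patrol the vessel wall.

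The deposited values are log2 expression values without counts, so the reads behind each value are unknown and the gap between the CT libraries is the measure of precision. Ly6c2, which encodes the sorting antigen, had a level of 8.56 to 8.72 in the 4 Ly6Chigh libraries and 2.69 to 4.07 in the 4 Ly6Clow libraries, so the labels held. The correlation of the CT libraries across genes was 0.968 in both subsets. The median gap of the CT Ly6Chigh libraries was 0.68 for genes with a mean level under 1 and 0.08 for genes with a mean level of at least 7. Values of Mmp14 and of Sdc4 in Ly6Chigh MCs lie at the low, imprecise end. The sequencer was a NextSeq 500 for CT and a HiSeq 4000 for both diabetic models. In every comparison with CT the effects of sequencer and disease cannot be told apart. For T2DM the same holds for the db/db genotype and any difference of strain background. Less RNA per cell and fewer cells of a type cannot be told apart in bulk samples. The values may not be scaled by transcript length, and no level is compared between genes.

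Promoter sequence is shown for Vcan, Sdc3 and Emp1, the 3 of the 10 genes that differed most between T2DM and CT Ly6Chigh MCs, to let their start regions be compared. Each run is the 250 bases before a RefSeq start site in GRCm38.p6, 5′ to 3′ on the strand of the gene. Capitals mark matches to the searched motifs on either strand, which are the AP-1 motif TGAGTCA in Emp1 and the Sp1 motif GGGCGG, or its reverse complement CCGCCC, in Vcan and Sdc3.
Vcan, chr13:89742513-89742762, minus strand: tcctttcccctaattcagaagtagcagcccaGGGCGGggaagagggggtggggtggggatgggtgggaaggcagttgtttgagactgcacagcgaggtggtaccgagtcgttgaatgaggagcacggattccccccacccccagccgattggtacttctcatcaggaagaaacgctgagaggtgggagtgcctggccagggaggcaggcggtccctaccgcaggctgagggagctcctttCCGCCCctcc
Sdc3, chr4:130792287-130792536, plus strand: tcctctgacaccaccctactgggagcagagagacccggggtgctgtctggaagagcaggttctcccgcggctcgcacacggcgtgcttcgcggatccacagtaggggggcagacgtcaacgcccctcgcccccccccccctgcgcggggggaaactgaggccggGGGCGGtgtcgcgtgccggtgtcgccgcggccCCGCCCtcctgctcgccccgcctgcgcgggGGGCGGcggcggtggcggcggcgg
Emp1, chr6:135362681-135362930, plus strand: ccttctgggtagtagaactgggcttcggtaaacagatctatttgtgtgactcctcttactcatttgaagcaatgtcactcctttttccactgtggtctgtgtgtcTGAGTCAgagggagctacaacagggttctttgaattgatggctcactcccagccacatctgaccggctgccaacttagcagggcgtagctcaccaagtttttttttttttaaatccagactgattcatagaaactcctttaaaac

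The Vcan and Emp1 stretches lie inside the gene spans given below, and the Sdc3 stretch ends next to its span. The 3 stretches differ in base composition. The Sdc3 stretch has 76.4% G and C and 32 CpG dinucleotides, the Vcan stretch 62.4% and 10, and the Emp1 stretch 44.4% and 3. The AP-1 motif of Emp1 begins at position -145, counted from the start site. A second Emp1 start site, at the window chr6:135367243-135367492, has none of the searched motifs. RefSeq windows were found for 8 of the 10 genes, 9 windows in all, and not for Fn1 and Mmp19. Of these 9 windows, 7 hold the Sp1 motif, which 32.7% of 32851 mouse windows of the same length hold. The AP-1 motif is in 1 of 9 windows and 4.46% of all, and the C/EBP motif TTGCNNAA in 1 of 9, that of Adam8, and 9.56% of all. No window of the 9 holds the PU.1 motif GAGGAA (23.3% of all), the interferon-stimulated response element, GAAA and GAAA with 2 bases between (2.98%), the NF-kB motif (0.98%), the E-box CACGTG (6.02%) or, on the sense strand, TATAAA (7.59%). A match describes the letters of the window and is not a site shown to be used.

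Vcan and Fn1, the matrix proteins themselves, were the members with the largest excess in Ly6Chigh MCs. Vcan (chr13:89655309-89743027) encodes versican, a large chondroitin sulfate proteoglycan that binds hyaluronan. Its level was 9.49 and 9.53 in the CT Ly6Chigh libraries, 9.23 in T1DM Ly6Chigh and 11.97 in T2DM Ly6Chigh MCs. In Ly6Clow MCs the level was 3.66 and 3.41 in CT mice, 3.34 in T1DM and 4.23 in T2DM. The lowest Ly6Chigh library stood well above the highest Ly6Clow library, and T2DM was the highest library of each subset. Ly6Chigh exceeded Ly6Clow MCs by a log2 difference of 5.98 in CT (62.9-fold), 5.89 in T1DM (59.3-fold) and 7.74 in T2DM (214-fold). The T2DM difference was rank 1 in size of all 16486 genes. T2DM exceeded the CT mean by 2.46 in Ly6Chigh and by 0.69 in Ly6Clow MCs, where the gaps of the CT libraries were 0.04 and 0.25. T1DM differed from the CT mean by -0.28 and -0.20, the first outside and the second inside the CT gap.

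Fn1 (chr1:71585473-71653280) encodes fibronectin, the glycoprotein that cells bind through integrins. Its level was 12.26 and 12.24 in CT mice, 12.99 in T1DM and 13.74 in T2DM Ly6Chigh MCs. The Ly6Clow levels were 8.92 and 8.86 in CT mice, 8.87 in T1DM and 8.97 in T2DM. The Ly6Chigh libraries were spread by mouse group and the Ly6Clow libraries lay close together. The subset difference was 3.36 in CT (10.3-fold), 4.13 in T1DM (17.5-fold) and 4.77 in T2DM (27.2-fold). In Ly6Chigh MCs, Fn1 differed from the CT mean by 0.74 in T1DM and 1.49 in T2DM, against a CT gap of 0.02. After quantile normalization these differences were 0.26 and 0.97, so the T2DM difference no longer passed 2-fold. In Ly6Clow MCs the differences were -0.02 in T1DM and 0.09 in T2DM, against a CT gap of 0.06.

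**Figure D1:**
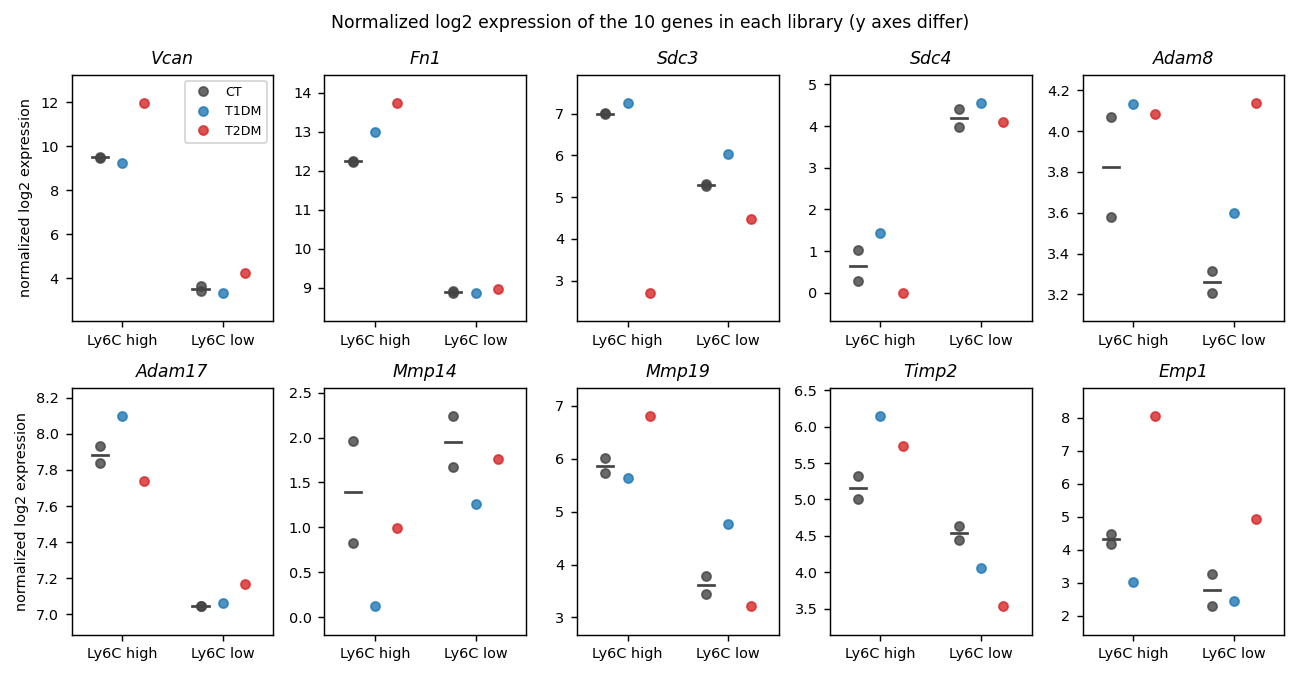
Normalized log2 expression (y axis, with its own range for each gene) of the 10 genes in Ly6Chigh and Ly6Clow MCs (x axis). Each point is 1 library, coloured by mouse group, and the short bar is the mean of the 2 CT libraries. Vcan and Fn1 lie higher in all Ly6Chigh libraries, Sdc4 lies lower in them, and the T2DM Ly6Chigh point stands apart at 2.70 for Sdc3 and 8.05 for Emp1.

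Sdc3 and Sdc4, the syndecans among the 10 genes, differed between the subsets in opposite directions in CT MCs. Syndecans are transmembrane proteoglycans whose heparan sulfate chains bind matrix proteins, growth factors and chemokines. Sdc3 (chr4:130792537-130826318) encodes syndecan-3, and its G and C rich start region is shown above. Its level was 7.01 and 7.00 in CT and 7.26 in T1DM Ly6Chigh MCs, and 2.70 in the T2DM Ly6Chigh library. In Ly6Clow MCs it was 5.32 and 5.28 in CT mice, 6.05 in T1DM and 4.47 in T2DM. The T2DM Ly6Chigh library was thus the lowest of the 8, while the other Ly6Chigh libraries were above all Ly6Clow libraries. The subset difference was 1.70 in CT, 1.21 in T1DM and -1.77 in T2DM. T2DM differed from the CT mean by -4.30 in Ly6Chigh MCs, 19.7-fold lower and rank 29 in size of all genes, and by -0.83 in Ly6Clow MCs. T1DM differed by 0.25 and 0.75. Each of these differences was larger than the CT gap of 0.0065 in Ly6Chigh or 0.04 in Ly6Clow MCs. Of the 31-base sequences of its GENCODE M21 transcripts, Sdc3 shares 6.3% with other genes, most with Gm26716.

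Genes near Sdc3 on the chromosome were looked up after its values were seen. Snrnp40 on 1 side differed between T2DM and CT Ly6Chigh MCs by -0.56, and Laptm5 on the other side by 0.04. Neither passed 2-fold. Beyond Laptm5, Ptpru had low levels, from -2.62 to 0.78 over the 8 libraries, and a difference of 2.80.

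Sdc4 (chr2:164424247-164443188) encodes syndecan-4, a syndecan of focal adhesions. Its level was 1.02 and 0.29 in CT mice, 1.44 in T1DM and -0.01 in T2DM Ly6Chigh MCs, near the low end of the table. The Ly6Clow levels were 4.42 and 3.97 in CT mice, 4.55 in T1DM and 4.09 in T2DM. All 4 Ly6Clow libraries were above all 4 Ly6Chigh libraries. The subset difference was -3.54 in CT, -3.11 in T1DM and -4.09 in T2DM. T1DM differed from the CT mean by 0.79 in Ly6Chigh and 0.36 in Ly6Clow MCs, and T2DM by -0.66 and -0.11. Of these, the T1DM Ly6Chigh difference passed its CT gap of 0.73 by little, the T2DM Ly6Chigh difference did not, and neither Ly6Clow difference passed the gap of 0.45.

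Adam8 and Adam17 are membrane-bound sheddases. Adam8 (chr7:139978932-139995207) encodes a metalloproteinase of leukocytes. Its level was 3.58 and 4.07 in CT mice, 4.13 in T1DM and 4.08 in T2DM Ly6Chigh MCs. In Ly6Clow MCs it was 3.31 and 3.21 in CT mice, 3.60 in T1DM and 4.14 in T2DM, the highest value of the 8. The subsets overlapped, and the subset difference was 0.56 in CT, 0.53 in T1DM and -0.06 in T2DM. In Ly6Clow MCs, T1DM exceeded the CT mean by 0.34 and T2DM by 0.88, both above the CT gap of 0.11. In Ly6Chigh MCs the differences of 0.31 and 0.26 were within the CT gap of 0.49.

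Adam17 (chr12:21323509-21373632) encodes the enzyme that releases TNF from the cell surface. Its level was 7.93 and 7.84 in CT mice, 8.10 in T1DM and 7.74 in T2DM Ly6Chigh MCs. Among Ly6Clow MCs the level was 7.05 and 7.05 in CT mice, 7.06 in T1DM and 7.17 in T2DM. The Ly6Chigh libraries were all above the Ly6Clow libraries, by a difference of 0.84 in CT, 1.03 in T1DM and 0.57 in T2DM. Under quantile normalization the T1DM difference was 0.81, under 2-fold. Diabetic libraries differed from the CT mean by at most 0.21 in size, in T1DM Ly6Chigh MCs. Adam17 shares 7.25% of its 31-base sequences with other genes, most with Iah1.

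Mmp14, Mmp19 and their inhibitor gene Timp2 showed no common pattern. Mmp14 (chr14:54431598-54442456) encodes a membrane-type metalloproteinase that activates proMMP2 together with TIMP2. Its level was 0.82 and 1.97 in CT mice, 0.12 in T1DM and 0.99 in T2DM Ly6Chigh MCs. In Ly6Clow MCs it was 2.24 and 1.68 in CT mice, 1.26 in T1DM and 1.76 in T2DM. The subsets overlapped, and the CT Ly6Chigh libraries alone were 1.15 apart. T1DM differed from the CT mean by -1.27 in Ly6Chigh MCs, which was -0.70 without CT Ly6Chigh replicate 2 and -0.82 with 1 added on the linear scale. The T1DM subset difference of -1.14 was -0.66 after quantile normalization and -0.70 with 1 added. In T2DM the subset difference was -0.77. The CT subset difference of -0.56 was 0.01 without CT Ly6Chigh replicate 1 and -1.14 without CT Ly6Chigh replicate 2.

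Mmp19 (chr10:128790910-128800827) encodes a secreted metalloproteinase. Its level was 5.72 and 6.01 in CT mice, 5.64 in T1DM and 6.80 in T2DM Ly6Chigh MCs. Among Ly6Clow MCs the level was 3.78 and 3.45 in CT mice, 4.77 in T1DM and 3.21 in T2DM. The Ly6Chigh libraries were all above the Ly6Clow libraries, by a difference of 2.25 in CT, 0.87 in T1DM and 3.59 in T2DM. T1DM exceeded the CT mean by 1.16 in Ly6Clow MCs and differed by -0.23 in Ly6Chigh MCs. T2DM exceeded it by 0.94 in Ly6Chigh MCs and differed by -0.41 in Ly6Clow MCs. The CT gaps were 0.29 and 0.33 in Ly6Chigh and Ly6Clow MCs. Mmp19 shares 26.7% of its 31-base sequences with other genes, most with Tmem198b, so its values are uncertain where the counting could split such reads.

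Timp2 (chr11:118301061-118355411) encodes tissue inhibitor of metalloproteinases 2. Its level was 5.32 and 5.00 in CT mice, 6.14 in T1DM and 5.73 in T2DM Ly6Chigh MCs. The Ly6Clow levels were 4.44 and 4.64 in CT mice, 4.06 in T1DM and 3.53 in T2DM. In both diabetic models the Ly6Chigh library was above, and the Ly6Clow library below, both CT libraries of its subset. The subset difference was 0.62 in CT, 2.09 in T1DM and 2.20 in T2DM. T1DM differed from the CT mean by 0.98 in Ly6Chigh and -0.48 in Ly6Clow MCs, and T2DM by 0.57 and -1.005. All 4 were larger than the CT gaps of 0.32 and 0.20.

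Emp1 (chr6:135362550-135383173) encodes epithelial membrane protein 1, a tetraspan membrane protein of the PMP22 family, and a start region of it with the AP-1 motif is shown above. Its level was 4.18 and 4.48 in CT mice, 3.03 in T1DM and 8.05 in T2DM Ly6Chigh MCs. In Ly6Clow MCs it was 3.27 and 2.29 in CT mice, 2.47 in T1DM and 4.93 in T2DM. The T2DM libraries were the highest of the 8, in both subsets. T2DM exceeded the CT mean by 3.72 in Ly6Chigh MCs (13.2-fold, rank 47 in size of all genes) and by 2.15 in Ly6Clow MCs (4.44-fold), against CT gaps of 0.30 and 0.97. T1DM differed by -1.30 in Ly6Chigh MCs and by -0.31, within the gap, in Ly6Clow MCs. For Emp1, Ly6Chigh exceeded Ly6Clow MCs by 1.55 in CT, 0.56 in T1DM and 3.12 in T2DM.

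Of the genes near Emp1, looked up after its values were seen, Fam234b, the second gene on the left, also had its highest levels in the T2DM libraries. Its level was 3.73 and 3.42 in CT mice, 3.76 in T1DM and 6.44 in T2DM Ly6Chigh MCs, and 2.68 and 3.25 in CT mice, 2.18 in T1DM and 5.00 in T2DM Ly6Clow MCs. T2DM exceeded the CT mean for Fam234b by 2.87 and 2.03. Gsg1, which lies between Fam234b and Emp1, had low levels and differences of 3.85 in Ly6Chigh and 0.59 in Ly6Clow MCs. Grin2b, on the right, differed by -0.02 and -0.79.

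**Figure D2:**
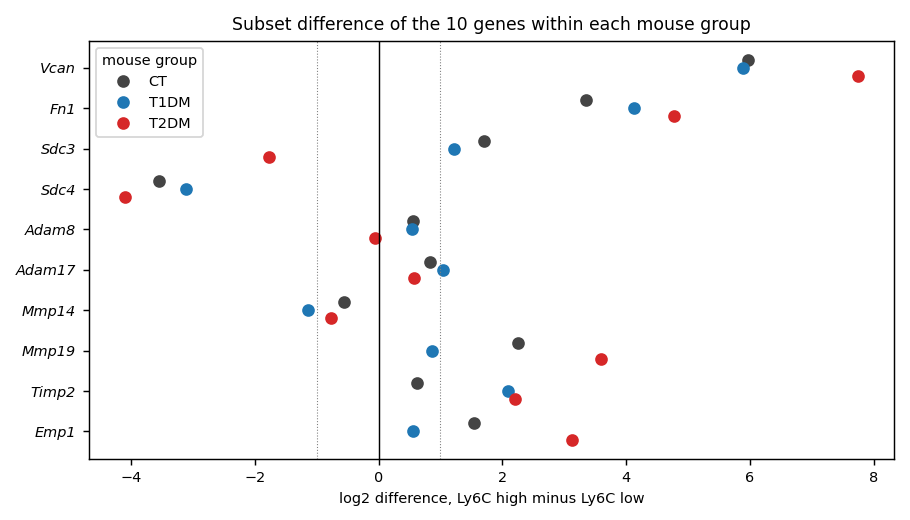
Log2 difference of Ly6Chigh minus Ly6Clow MCs (x axis) for the 10 genes (y axis) within CT, T1DM and T2DM mice, with dotted lines at 2-fold. Each CT point rests on 2 libraries a subset and each diabetic point on 1. Sdc4 lies left of 0 in all 3 mouse groups, and Sdc3 lies at 1.70 in CT, 1.21 in T1DM and -1.77 in T2DM.

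Over the 10 genes, 8 were higher and 2 lower in Ly6Chigh than Ly6Clow MCs in CT, with a median difference of 1.19 beside -0.09 over all genes. The corresponding medians were 0.95 beside -0.04 in T1DM and 1.39 beside -0.03 in T2DM. Past 2-fold were 7 of 10 genes in T1DM, where 27.9% of all genes were, and 7 of 10 in T2DM, where 29.1% were. The T1DM count was 5 after quantile normalization, without Adam17 and Mmp14, and 6 with 1 added on the linear scale, without Mmp14. The 4 Ly6Chigh and 4 Ly6Clow libraries did not overlap for 6 of 10 genes (Vcan, Fn1, Adam17, Timp2 and Mmp19 higher, Sdc4 lower), and for 32.8% of all genes. Calls needed a limma p under 0.01 after Benjamini-Hochberg adjustment over all genes and a difference past 2-fold. In CT these criteria gave Vcan, Fn1 and Sdc3, 3 of 10, and 3.52% of all genes. Over the 8 libraries, with mouse group as covariate, they gave Vcan, Fn1, Timp2, Mmp19 and Emp1 as higher and Sdc4 as lower in Ly6Chigh MCs, 6 of 10, and 12.1% of all genes. As the genes were chosen on these values, nothing is read from these counts. Leaving out any 1 of the 4 CT libraries ended all calls in CT, leaving 1 residual degree of freedom. Over the 8 libraries, leaving out any 1 CT library ended the call of Emp1, and leaving out CT Ly6Chigh replicate 1 or CT Ly6Clow replicate 1 also that of Timp2, while Vcan, Fn1, Sdc4 and Mmp19 stayed called. Without the T2DM libraries, Sdc3 was called and Emp1 and Timp2 were not, and without the T1DM libraries Timp2 was not called.

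Against the CT mean in Ly6Chigh MCs, T1DM was past 2-fold for 2 of 10 genes (Mmp14 and Emp1 lower) and for 10.1% of all genes, and T2DM for 4 of 10 (Vcan, Fn1 and Emp1 higher, Sdc3 lower) and for 13.8% of all genes. In Ly6Clow MCs, T1DM was past 2-fold for 1 of 10 (Mmp19 higher) and 8.81% of all genes, and T2DM for 2 of 10 (Emp1 higher, Timp2 lower) and 10.8% of all genes. These comparisons share the CT libraries and have 1 diabetic library, so none was tested. The median differences of the 10 genes were 0.23 in T1DM and 0.41 in T2DM Ly6Chigh MCs, beside 0.02 over all genes in both. In Ly6Clow MCs the medians were -0.0047 in T1DM, beside 0.0032 over all genes, and -0.01 in T2DM, beside -0.0064. Timp2 in T2DM Ly6Clow MCs and Mmp19 in T1DM Ly6Clow MCs lay at the 2-fold limit, at -0.90 without CT Ly6Clow replicate 2 for Timp2 and 0.99 without it for Mmp19.

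**Figure D3:**
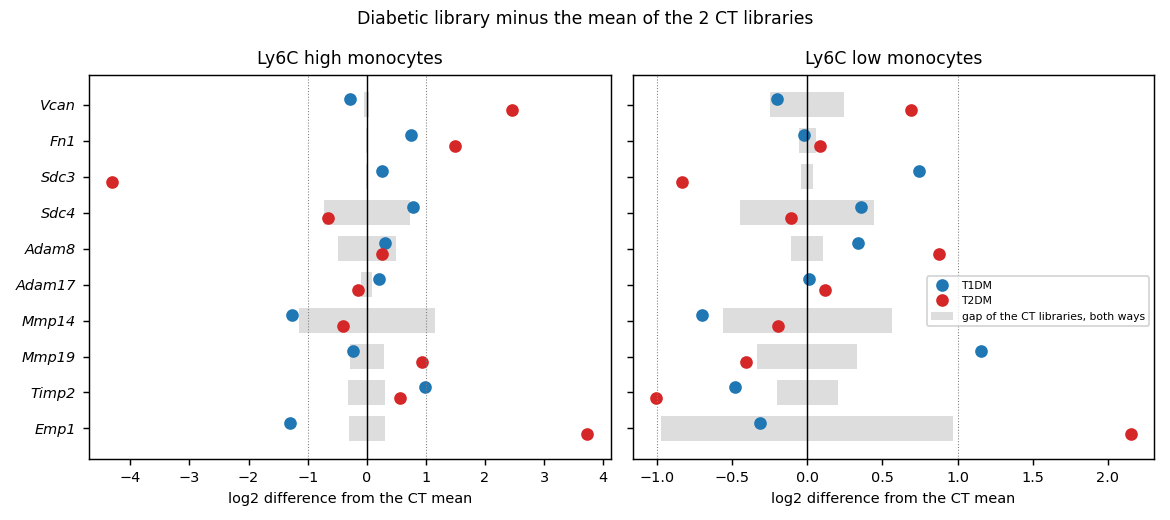
Log2 difference of the T1DM and T2DM library from the mean of the 2 CT libraries (x axis) for the 10 genes (y axis), in Ly6Chigh and in Ly6Clow MCs. Grey bars span the gap of the 2 CT libraries in both directions, and dotted lines mark 2-fold. T2DM Ly6Chigh MCs lie at -4.30 for Sdc3 and 3.72 for Emp1, far outside the grey bars, while Mmp14 has a grey bar 1.15 long on each side.

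Markers of other blood cells moved with several of these values, and their part in the results was not tested. The summed level of 8 B cell markers was 10.89 to 11.32 in the Ly6Clow and 5.89 to 7.15 in the Ly6Chigh libraries, and all 8 were lower in every Ly6Chigh library, the direction of Sdc4. The sum of 7 NK cell markers was 7.19 to 9.58 in Ly6Clow and 4.54 to 6.63 in Ly6Chigh libraries. In T2DM all 7 NK markers were below both CT libraries in each subset, the direction of Sdc3 in both. All 8 B cell markers were below both CT libraries in T2DM Ly6Chigh MCs, while 7 of 8 were above both in T2DM Ly6Clow MCs, where Sdc3 was lower. The sum of 7 measured of 10 listed neutrophil markers was 10.32 in T2DM and 7.34 and 7.50 in CT Ly6Chigh MCs. Of the 7, 5 were above both CT libraries, the direction of Vcan, Fn1 and Emp1, and 2 were below both. Mmp8 was the largest part of this sum, at 9.70 in T2DM and 7.15 and 7.28 in CT Ly6Chigh MCs. In Ly6Clow MCs the sum of the 7 was 6.72 in T2DM and 4.77 and 5.02 in CT. Lcn2, a neutrophil granule gene, had a level of 8.71 in T2DM and of 3.17 and 1.90 in CT Ly6Chigh MCs. The neutrophil genes Ltf and Retnlg had low levels of 0.42 and -1.55 in T2DM Ly6Chigh MCs, and Ly6g, Camp and Elane were not analysed here. The 6 nonclassical monocyte markers were all below both CT libraries in T2DM Ly6Chigh MCs, where their sum was 10.40, beside 11.37 in both CT libraries. Platelet markers summed to 9.64 and 9.77 in the T1DM, 7.72 and 7.95 in the T2DM and 8.51 to 8.95 in the CT libraries. Erythroid markers summed to 15.21 and 14.94 in the T1DM, 14.02 and 14.01 in the T2DM and 14.31 to 14.56 in the CT libraries. Markers of 4 classical monocyte genes were higher in every Ly6Chigh library, with sums of 11.78 to 12.82 and 9.22 to 9.74. Only 3 of the 6 nonclassical markers were lower in every Ly6Chigh library. All 6 markers shared by both monocyte subsets were also higher in every Ly6Chigh library, with sums of 15.15 to 15.74 and 12.92 to 13.15. This is the direction of Vcan, Fn1, Adam17, Timp2 and Mmp19. Whether the subsets differed in their share of monocytes was not tested.

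The other genes of these families were listed by family name, without the 10 genes above, and 156 were measured. In CT limma called 7 as higher and 5 as lower in Ly6Chigh MCs, 7.69% of the list beside 3.52% of all genes. Over the 8 libraries it called 13 as higher and 14 as lower, 17.3% beside 12.1% of all genes. The median difference over the 8 libraries was -0.20, beside -0.08 over all genes. As given above, summed B cell and NK cell markers were higher in the Ly6Clow libraries, and summed shared monocyte markers in the Ly6Chigh libraries. Their part in the family genes called as lower or higher was not tested.

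Among the other matrix glycoproteins, 4 of 21 were higher and 3 lower in Ly6Chigh MCs over the 8 libraries. Tgfbi, which encodes a secreted matrix protein induced by TGF-beta, had a level of 9.84 and 9.77 in CT mice, 9.77 in T1DM and 10.61 in T2DM Ly6Chigh MCs, and of 6.43 to 7.37 in Ly6Clow MCs. Its difference was 3.12 (SE 0.10, limma adjusted p = 4.68e-07 by Benjamini-Hochberg). Emilin2 (2.06), an elastin interface protein gene, Ecm1 (1.12) and Emilin1 (1.64) also rose. Tgm2, the gene of the enzyme that cross-links matrix proteins, was lower by a difference of -2.52 (SE 0.24, adjusted p = 9.03e-05). Nid1 (-5.66), the gene of a basement membrane protein, and Thbs3 (-2.24) fell as well. Emilin1, Nid1 and Thbs3 are named after their values were seen, to complete the count. In CT, Tgfbi (2.96) was called as higher and Lamc1 (-1.83) as lower.

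Among 13 other MMP genes, Mmp8, the neutrophil collagenase gene, was called as higher in CT and over the 8 libraries, and no other. Its level was 7.28 and 7.15 in CT mice, 6.99 in T1DM and 9.70 in T2DM Ly6Chigh MCs, and 1.37 to 3.35 in Ly6Clow MCs. The difference over the 8 libraries was 5.56 (SE 0.21, limma adjusted p = 9.02e-07). T2DM exceeded the CT mean by 2.48 in Ly6Chigh MCs. Mmp8 is also on the neutrophil list above. Mmp9, the gelatinase gene, had a level of 3.41 in T2DM and of 1.11 and 0.48 in CT Ly6Chigh MCs, but was not called between the subsets (difference 0.65, adjusted p = 0.241).

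Of 11 other ADAM genes, Adam15 rose (2.17, SE 0.20, limma adjusted p = 7.22e-05), and Adam23 (-2.28) and Adamdec1 (-4.10) fell. Adamdec1 encodes a secreted ADAM-like protease, and it was called in CT as well. Its level was an equal -1.16 in both CT Ly6Chigh libraries, -2.75 in T1DM and -0.82 in T2DM Ly6Chigh MCs, and 2.43 to 2.83 in Ly6Clow MCs. The equal values lie at the low end and show no spread, so the size and call of this difference are uncertain. Adam23 was low as well, with a mean level of 1.97 over the 8 libraries. Of 13 ADAMTS genes, Adamts14 (-3.05, SE 0.22, limma adjusted p = 1.88e-05) and Adamts9 (-1.50) fell, with none higher. The mean level of Adamts9 was low, at 1.43 over the 8 libraries. Adamts14 differed between T2DM and the CT mean by -1.55 in Ly6Chigh and -1.90 in Ly6Clow MCs. All 7 NK cell markers were also lower in T2DM in both subsets, and their part was not tested. Adamts14 was the ADAMTS gene called in CT.

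Among 12 genes of ADAM17 maturation partners and shed substrates, 3 rose and 1 fell over the 8 libraries. Il6ra, the IL-6 receptor gene whose protein ADAM17 sheds, rose by 1.27 (SE 0.07, limma adjusted p = 6.58e-06). Furin (1.33), the proprotein convertase gene, and the TNF receptor gene Tnfrsf1a (1.03) rose too. Rhbdf1, which encodes iRhom1, an escort of ADAM17, fell by 2.68 on the log2 scale (SE 0.41, limma adjusted p = 0.00122). Its level was low, at -0.09 and -0.46 in CT Ly6Chigh and 3.15 and 2.55 in CT Ly6Clow MCs. Rhbdf2 of the same list, named after its values were seen, went the other way (0.60) and was not called. In CT, Il6ra and Tnfrsf1a were called as higher.

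The enzymes that build and trim glycosaminoglycans, the sugar chains of versican and the syndecans, were called in both directions. Over the 8 libraries 4 of 34 rose and 6 fell. The 4 that rose act on heparan sulfate: Sulf2 (1.83, SE 0.11, limma adjusted p = 7.84e-06), which removes sulfate groups, Hpse (2.03), the heparanase that cuts the chains, Ndst2 (1.23) and Glce (1.14). Of the 6 that fell, Chst3 (-3.61), Chst7 (-3.66), Chst11 (-2.71), Chst15 (-3.03) and Chpf (-3.05) encode enzymes of chondroitin sulfate and Hs3st1 (-3.08) a heparan sulfate sulfotransferase. These 6 are named after their values were seen, and the kinds of enzyme were not compared by a test. In CT, Sulf2 and Csgalnact2 were called as higher and Chst7 and Chst15 as lower.

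Cd44, the hyaluronan receptor gene, was called in CT (1.07, SE 0.03, limma adjusted p = 0.00229) and lay just under 2-fold over the 8 libraries (1.00, adjusted p = 1.82e-05), the 1 CT call among 14 other hyaluronan and chondroitin sulfate proteoglycan genes. Over the 8 libraries limma called 0 of these 14, with 4 at an unadjusted p under 0.05. It called 0 of 3 other syndecan and glypican genes (1 at an unadjusted p under 0.05), 0 of 3 TIMP and other inhibitor genes (1), 0 of 3 EMP and PMP22 family genes (2) and 0 of 29 collagen genes (11). In CT it also called 0 in these 4 lists, with 1, 0, 1 and 7 genes at an unadjusted p under 0.05. Emp3, of the family of Emp1, had a difference of 0.92 (adjusted p = 8.85e-05), short of 2-fold. Its T2DM differences from the CT mean were 0.30 and 0.26 in Ly6Chigh and Ly6Clow MCs.

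**Figure D4:**
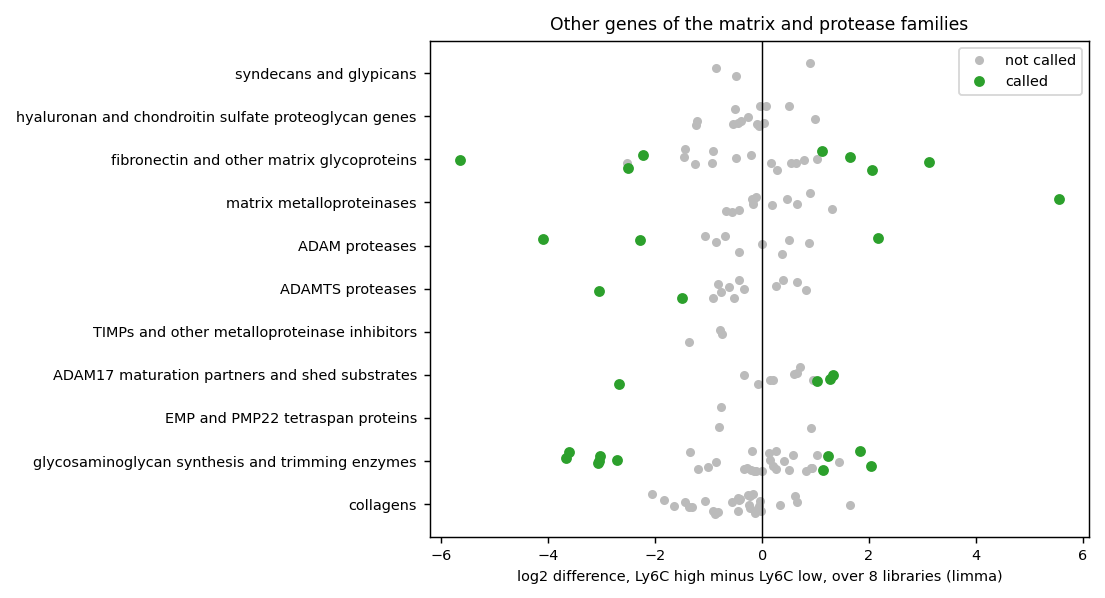
Log2 difference of Ly6Chigh minus Ly6Clow MCs over the 8 libraries (x axis, from limma) for 156 genes of the matrix and protease families other than the 10 genes, by list (y axis). Each point is a gene, spread at random within its list, and green points are called, 13 to the right and 14 to the left of 0. Mmp8 lies farthest right at 5.56 and Nid1 farthest left at -5.66.

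Against CT, the other family genes past 2-fold in Ly6Chigh MCs were 13 higher and 13 lower in T1DM, 16.7% of the list beside 10.1% of all genes, and 15 higher and 17 lower in T2DM, 20.5% beside 13.8%. In Ly6Clow MCs they were 9 higher and 15 lower in T1DM, 15.4% beside 8.81%, and 13 higher and 17 lower in T2DM, 19.2% beside 10.8%. None of these was tested, for want of a second diabetic library.

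The genes whose levels ran most like 3 of the members were found by Pearson's r over the 8 libraries, among genes with a mean level of at least 5. These libraries share subset and pool, so r is a description. Vcan was most like Rpl36al (r = 0.999), Akr1a1 (0.998) and Ywhab (0.998), and 1024 of 5227 genes had r above 0.9. Sdc3 was most like Gm8995 (0.990), Nlrc5 (0.984) and Gm4070 (0.983), with 51 genes above 0.9. Emp1 was most like Rbm3 (0.979), Fpr2 (0.971) and Lcp1 (0.966), with 43 of 5228 genes above 0.9. Fpr2, a formyl peptide receptor gene, had a level of 5.41 and 4.93 in CT mice, 4.25 in T1DM and 7.44 in T2DM Ly6Chigh MCs, and of 4.09 to 5.72 in Ly6Clow MCs. Nlrc5, the activator of MHC class I genes, had a level of 6.61 and 6.85 in CT mice, 6.93 in T1DM and 5.00 in T2DM Ly6Chigh MCs, and of 5.88 to 6.35 in Ly6Clow MCs.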

How the data were processed

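Bulk RNA-Seq values of 8 libraries were used, each assigned to subset and mouse group by its label. Per the labels, the authors ran Kallisto (0.45) before summing transcripts to genes with tximport (version 1.12.3, under R version 3.6.1), and the submitters' processing notes name build mm10. The deposited unit is a log2 expression value for 16486 gene entries. Scaling, log offset and filter are not given in the sources used here, and these choices could move low values. No further normalization was applied.

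Subsets were compared in limma 3.58.1 (R 4.3.3; lmFit, eBayes with trend) in CT alone and over 8 libraries with mouse group as covariate, with Benjamini-Hochberg adjustment over all genes. Comparisons with 1 library on a side are differences without a test. The members and lists were chosen with earlier results of these data known. Named genes are the 10 members, per list up to 4 others with the highest mean, called ones first, and the 3 genes most like Vcan, Sdc3 and Emp1. Alternatives were a filter (mean of at least 1), 1 added on the linear scale, quantile normalization, no trend, adjusted p under 0.05, a replicate block and leaving out libraries. The fits were tested on simulated data. Coordinates, promoters and neighbours came from RefSeq GRCm38.p6, and shared 31-base sequences from GENCODE M21. Plots were made in Python 3.11.15 with matplotlib 3.10.9. A neighbouring gene is not reported here.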

Additional observations from a re-analysis of the deposited data

Results flagged for a closer look

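In 5 of the 10 genes an effect had opposite signs in a pair of groups under the same contrast, in every library compared. The differences with a diabetic library were not tested, since each rests on 1 such library a side. Those within CT are the subset differences given above. Sdc3 was lower in Ly6Chigh than Ly6Clow MCs in T2DM (-1.77) and higher in CT (1.70). Adam8 had a subset difference of -0.0551 in T2DM, smaller than its CT Ly6Chigh gap of 0.49, and 0.56 in CT. Adam17 differed between T2DM and CT by -0.14 in Ly6Chigh and 0.12 in Ly6Clow MCs. Timp2 was above CT in Ly6Chigh and below it in Ly6Clow MCs, by 0.98 and -0.48 in T1DM and by 0.57 and -1.005 in T2DM. Mmp19 differed from CT by -0.23 in Ly6Chigh and 1.16 in Ly6Clow MCs in T1DM, and by 0.94 and -0.41 in T2DM. The difference of -0.23 was smaller than the CT Ly6Chigh gap of 0.29. No group had the 4 libraries needed to look for an outlying library.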

How the results depend on the processing

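In CT, 581 genes and 12 other family genes were called. These counts were 1089 and 23 with the low-value filter, 1936 and 34 at adjusted p under 0.05, and 0 and 0 without the variance trend, where 5810 genes had an unadjusted p under 0.05. Leaving out 1 CT library gave 0 and 0 each time, with 4651 to 5241 genes at an unadjusted p under 0.05. With the replicate number as a block they were 0 and 0, with 5513 genes at an unadjusted p under 0.05. Deviations of same-numbered CT libraries correlated at 0.009 across genes. With 2 pairs this cannot show whether equal numbers mark a shared source. The block and each left-out CT library leave 1 residual degree of freedom. Over the 8 libraries 2001 genes were called, 1823 with the block, 2792 at adjusted p under 0.05 and 1507 to 1872 otherwise. The other family genes went from 27 to 43 at adjusted p under 0.05 and were 21 to 30 otherwise. Of the 10 genes, 6 were called over the 8 libraries and 3 (Vcan, Fn1 and Sdc4) without the trend. The block ended the calls of Timp2 and Emp1, and 1 added on the linear scale that of Emp1. In CT, 3 were called, and 5 with the filter, after quantile normalization or at adjusted p under 0.05. The counts of the 10 genes under other settings were added after seeing the data. Of 260 differences of the 10 genes under other settings, 253 kept their sign, and none past 2-fold changed sign. Quantile normalization moved the median CT subset difference of all genes from -0.09 to 0.02. Counts per gene were not analysed here, so no counting error can be given for low levels such as those of Mmp14.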
